A study of Mus musculus with 6 samples.

Results

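The genes described here are 9 genes of the T helper type 1 (Th1) axis, Ifng and 8 genes for its regulators: the receptor subunits Il12rb2, Il18r1 and Il18rap, the signal transducer Stat4, and the transcription factors Tbx21, Eomes, Runx3 and Hlx. They were taken as every probe set that the platform's annotation ties to exactly 1 of these symbols, which gave 12 probe sets of 34945 with a single symbol, and 9 genes of 18193. Eomes, Il18rap and Runx3 had 2 probe sets each, and the other 6 genes had 1. The deposited values are microarray intensities from CD4 T cells of C57BL/6 mice, Ezh2 knockout (Ezh2 KO) or wild type (WT). Naive cells (CD44 low, CD62L high) purified from spleen were cultured for 5 days, 2 days on T cell receptor β chain antibody at 10 µg/ml with 1 µg/ml antibody to CD28 and then 3 days without them, with 15 ng/ml IL-2 in every culture. Unpolarized cultures held antibodies to IL-4 and to interferon gamma (IFN-γ). Th1 cultures held 1 ng/ml IL-12 and the antibody to IL-4, and Th2 cultures held 10 ng/ml IL-4 and the antibody to IFN-γ. There was 1 array for each genotype in each of the 3 cultures, 6 arrays in all. The labels do not say whether arrays of a genotype came from separate mice, which part of Ezh2 was deleted or with which Cre, so p-values reflect no more than the spread among these 6 arrays.

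Ezh2 is the catalytic subunit of Polycomb repressive complex 2, which methylates histone H3 on lysine 27 at genes held silent. In CD4 T cells, IL-12 binds a receptor that contains Il12rb2 and activates Stat4, and Stat4 and the T-box factor T-bet (Tbx21) act on Ifng, while T-bet with Runx3 and Hlx sustains its expression. IL-18, which signals through Il18r1 and Il18rap, adds to IFN-γ production by cells that have already seen IL-12, and Eomes, a second T-box factor, drives IFN-γ mainly in CD8 T cells and natural killer cells.

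The promoter windows of 4 of these genes are shown because the results turn on them: Ifng, Eomes and Il12rb2 had the highest 3 differences between the genotypes among the genes that passed the test, and Tbx21 was the gene whose WT level followed the culture most. Each window runs from 250 bases before to 50 after the annotated start, 5′ to 3′ on the gene's strand, from RefSeq on GRCm38.p6. The coordinates are chr10:118440796-118441095 (plus strand) for Ifng, chr9:118477939-118478238 (plus strand) for Eomes, chr6:67376139-67376438 (minus strand) for Il12rb2 and chr11:97115282-97115581 (minus strand) for Tbx21. Capitals mark matches to the STAT motif TTCNNNGAA.
Ifng: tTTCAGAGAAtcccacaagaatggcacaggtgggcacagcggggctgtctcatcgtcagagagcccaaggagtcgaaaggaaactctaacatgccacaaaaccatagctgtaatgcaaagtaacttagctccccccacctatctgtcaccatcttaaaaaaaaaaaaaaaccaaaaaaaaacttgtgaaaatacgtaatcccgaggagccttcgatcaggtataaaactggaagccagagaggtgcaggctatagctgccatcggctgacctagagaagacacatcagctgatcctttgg
Eomes: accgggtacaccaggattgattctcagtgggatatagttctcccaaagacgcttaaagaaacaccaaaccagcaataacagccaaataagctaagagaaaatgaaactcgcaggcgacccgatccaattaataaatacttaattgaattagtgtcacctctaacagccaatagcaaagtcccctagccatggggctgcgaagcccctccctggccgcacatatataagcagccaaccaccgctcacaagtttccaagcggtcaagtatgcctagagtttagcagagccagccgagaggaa
Il12rb2: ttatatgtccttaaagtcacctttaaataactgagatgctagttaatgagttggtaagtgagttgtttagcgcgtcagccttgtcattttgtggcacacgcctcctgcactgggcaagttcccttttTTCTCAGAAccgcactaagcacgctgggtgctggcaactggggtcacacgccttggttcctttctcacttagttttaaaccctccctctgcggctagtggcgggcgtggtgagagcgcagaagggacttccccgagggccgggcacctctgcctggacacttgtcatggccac
Tbx21: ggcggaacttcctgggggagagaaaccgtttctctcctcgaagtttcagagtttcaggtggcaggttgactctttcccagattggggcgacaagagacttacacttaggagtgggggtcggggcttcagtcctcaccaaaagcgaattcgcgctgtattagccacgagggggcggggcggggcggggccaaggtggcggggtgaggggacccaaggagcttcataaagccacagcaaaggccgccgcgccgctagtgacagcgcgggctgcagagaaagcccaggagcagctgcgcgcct
The Ifng window held 1 STAT match, 249 to 241 bases before the start, and the Il12rb2 window held 1, 123 to 115 bases before it. All 9 genes matched the RefSeq table, with 13 windows between them. The motifs searched on both strands were TTCNNNGAA, the Runx motif TGTGGT, the T-box motif GGTGTGA and the AP-1 motif TGANTCA, which do not overlap one another in the matches found. A STAT match lay in 3 of the 13 windows (1 each of Ifng, Il12rb2 and Il18r1) and in 8.30% of all 32851 windows. A Runx match lay in 3 of the 13 windows (1 each of Il18r1, Il18rap and Runx3) and in 16.8% of all windows. No member window held the T-box motif or the AP-1 motif, found in 3.98% and 7.81% of all windows. The count of CpG sites was 7 for Ifng, 10 for Eomes, 12 for Il12rb2 and 21 for Tbx21, against a median of 7 over all windows. Of the 2 windows of Runx3, the second held 45 CpG sites, at percentile 98.1 of all windows, and the first held 8. Such matches describe the letters of these windows and nothing about binding.

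Most transcripts of the Th1 axis were higher in Ezh2 KO cells, 8 of 9 in every culture, as were 26.2% of all tested genes. Ifng, Eomes, Il12rb2, Il18r1, Il18rap and Runx3 rose, Stat4 and Tbx21 were higher in each culture without passing the test, and Hlx was at background on 5 of the 6 arrays. With limma's additive model of genotype and culture and Benjamini-Hochberg adjustment over 11572 tested genes, 6 of the 9 genes were higher and 0 lower at an adjusted p under 0.05, against 8.35% of tested genes higher and 7.98% lower. Unadjusted, 8 of the 9 had a p under 0.05, all higher in Ezh2 KO. The median difference of the 9 genes was log2 1.59, and that of all tested genes was -0.07. All 9 passed the signal limit (an intensity of 64.4, the median of all values, on at least 1 array), but Ifng, Il12rb2 and Hlx passed it through Ezh2 KO arrays alone, so their counting among the tested genes depends on their being high there. These calls rest on 2 residual degrees of freedom: with any 1 culture left out no tested gene passed, and the 6 genes had adjusted p from 0.0803 to 0.153. Without the signal filter none passed either, with adjusted p from 0.0769 to 0.107 for the 6 genes. Centring each array on its median changed the split of all calls from 966 higher and 924 lower to 861 higher and 411 lower, with the same 6 genes of the axis higher and none lower.

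**Figure D1:**
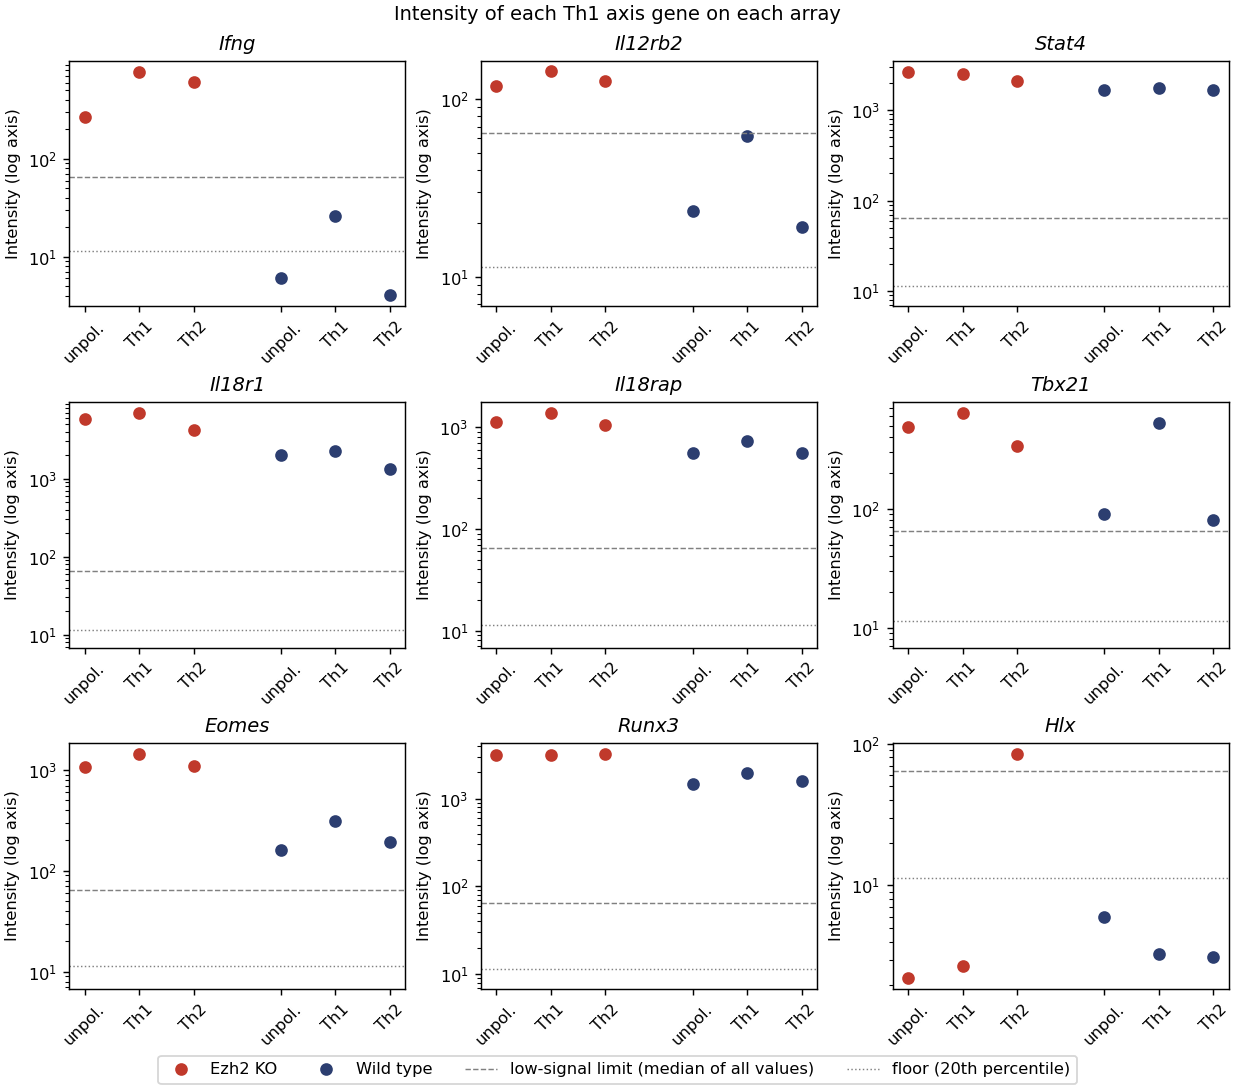
Intensity (log axis) of the 9 genes on each of the 6 arrays, Ezh2 KO in red on the left and WT in blue on the right, each in unpolarized, Th1 and Th2 cultures, 1 array per point. The dashed line is the signal limit of 64.4 and the dotted line the floor of 11.3. Ifng sits between 266 and 767 on the Ezh2 KO arrays and at 25.8 or lower on the WT arrays, and the Tbx21 point of the WT Th1 array lies among the Ezh2 KO points.

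Ifng encodes IFN-γ, the cytokine that defines Th1 cells. Its intensity was 266, 767 and 608 in unpolarized, Th1 and Th2 cultures of Ezh2 KO cells, against 6.07, 25.8 and 4.03 in the same cultures of WT cells. The groups did not overlap: the lowest Ezh2 KO array, from unpolarized cells, stood 10.3-fold above the highest WT array, from Th1 cells. WT unpolarized and Th2 cells lay below the floor of 11.3 (the 20th percentile of all values, to which lower values were raised), and WT Th1 cells lay between the floor and the signal limit. The mean difference was log2 5.07 ± 0.61 (SD over 3 cultures; SE of the fit 0.273), at least 33.5-fold, with an adjusted p of 0.0177. The size depends on the floor: it was log2 3.74 with a floor at the 40th percentile and 5.86 with none. The difference per culture was at least log2 4.56 in unpolarized cells, 4.89 in Th1 cells and at least 5.75 in Th2 cells, so the gap was wide also in cultures that held antibody to IFN-γ and, in Th2 cells, IL-4. In these bulk cultures, a change in the number of IFN-γ-producing cells and a change in RNA per cell cannot be told apart.

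On the IL-12 side, the receptor subunit gene rose and the gene for its signal transducer was higher by a smaller amount. Il12rb2, the IL-12 receptor β2 chain, had intensities of 119, 144 and 126 in unpolarized, Th1 and Th2 cultures of Ezh2 KO cells, against 23.5, 61.6 and 19.1 in WT cells. All 3 Ezh2 KO arrays were above the signal limit and all 3 WT arrays below it, with WT Th1 cells closest to it. The mean difference was log2 2.10 ± 0.78 (SD over 3 cultures; SE 0.34), or 4.27-fold, with an adjusted p of 0.0407. It was smallest in Th1 cultures (log2 1.23), where the WT level was highest, and 2.34 and 2.72 in unpolarized and Th2 cultures. Stat4, which carries the IL-12 signal to the nucleus, read 2653, 2496 and 2097 in Ezh2 KO cells, against 1684, 1763 and 1658 in WT cells. The groups did not overlap, yet the WT arrays were already bright and nearly level across cultures. The mean difference of log2 0.50 ± 0.16 (1.41-fold; SE 0.102) had an adjusted p of 0.0558 and was not called. With a stricter signal filter, a higher floor, an intensity trend or no culture term, Stat4 did pass (adjusted p from 0.00371 to 0.045).

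Both subunits of the IL-18 receptor rose, by amounts that varied little between cultures. Il18r1, the ligand-binding chain, read 5817, 6924 and 4204 in unpolarized, Th1 and Th2 cultures of Ezh2 KO cells, against 2032, 2288 and 1311 in WT cells. Th2 cells were lowest and Th1 cells highest in both genotypes, and the groups stayed apart. The difference was log2 1.60 ± 0.08 (SD; SE 0.084), or 3.03-fold, with an adjusted p of 0.0175. Il18rap, the accessory chain needed for signalling, had 1122, 1389 and 1063 in Ezh2 KO cells, against 562, 731 and 559 in WT cells. It rose by log2 0.95 ± 0.04 (1.93-fold; SE 0.0784; adjusted p 0.0217), and its range over cultures was also narrow. Its second, dimmer probe set read 532, 561 and 477 in Ezh2 KO cells, against 214, 314 and 202 in WT cells, a difference of log2 1.13 ± 0.26 in the same direction.

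Of the transcription factors, Eomes and Runx3 rose, Tbx21 was not called and had its smallest difference in Th1 cultures, and Hlx could barely be read. Tbx21, which encodes T-bet, had 489, 643 and 336 in unpolarized, Th1 and Th2 cultures of Ezh2 KO cells, against 90.0, 530 and 80.8 in WT cells. The groups overlapped, because WT Th1 cells stood above Ezh2 KO unpolarized and Th2 cells. The difference was log2 2.44 in unpolarized, 0.28 in Th1 and 2.05 in Th2 cultures. Its mean was 1.59 ± 1.15 (SD, with an SE of 0.498) and its adjusted p 0.108, so Tbx21 was not called. With 1 array for each genotype and culture, a genotype difference that varies between cultures counts as residual spread in this additive fit. Tbx21 passed with a filter on the mean (adjusted p 0.0391) or an intensity trend (0.0113), and over all settings with every culture kept its adjusted p ran from 0.0113 to 0.229.

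Eomes read 1071, 1439 and 1088 in the unpolarized, Th1 and Th2 cultures of Ezh2 KO cells, against 161, 313 and 192 in WT cells. The Ezh2 KO arrays were all above the WT ones, and Th1 cells were highest in both genotypes. It rose by log2 2.48 ± 0.27 (SD; SE 0.137), or 5.57-fold, with an adjusted p of 0.0177. The second probe set gave 1034, 1220 and 1042 in Ezh2 KO cells, against 163, 358 and 142 in WT cells, a difference of 2.44 ± 0.59. The pair differed in where WT Th2 cells stood, above unpolarized cells on the first probe set and below them on the second.

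Runx3, which binds with T-bet at Ifng in Th1 cells and helps silence Il4, had 3126, 3145 and 3225 in the 3 cultures of Ezh2 KO cells, against 1470, 1987 and 1605 in WT cells. The Ezh2 KO values were almost level, and the WT values were all lower, with Th1 cells the highest of them. The rise was log2 0.92 ± 0.23 (SD; SE 0.123), or 1.89-fold, with an adjusted p of 0.0332. The second Runx3 probe set was under the signal limit on all 6 arrays, with 3.96, 5.25 and 53.7 in Ezh2 KO cells, against 12.3, 42.0 and 47.8 in WT cells. Its dim values gave -0.61 ± 1.12, and averaging both probe sets took the Runx3 difference to 0.15, with an adjusted p of 0.732. The call for Runx3 is therefore that of 1 probe set.

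Hlx, a homeobox factor that cooperates with T-bet, read 2.24, 2.72 and 83.8 in unpolarized, Th1 and Th2 cultures of Ezh2 KO cells, against 5.99, 3.26 and 3.13 in WT cells. Only Ezh2 KO Th2 cells were above the floor. The mean difference of log2 0.96 ± 1.67 (SD; SE 0.715; adjusted p 0.386) comes from that array alone and is 0 without the Th2 cultures.

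**Figure D2:**
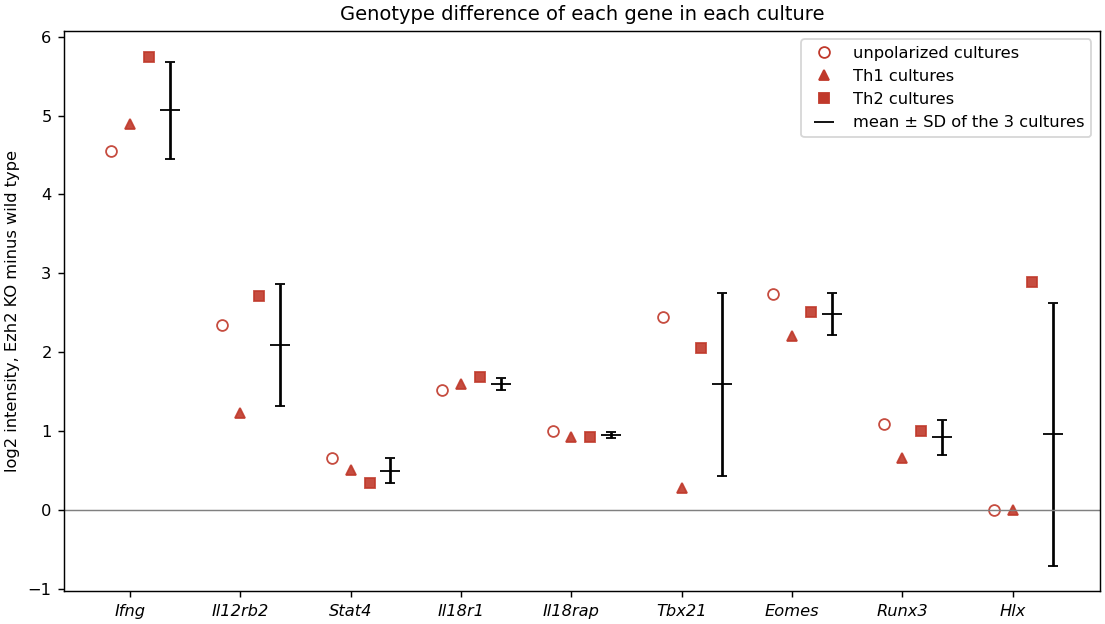
Log2 intensity difference of Ezh2 KO minus WT for each gene in unpolarized, Th1 and Th2 cultures (1 pair of arrays per symbol), with the mean and SD of the 3 cultures in black. Il18r1 (1.60 ± 0.08) and Il18rap (0.95 ± 0.04) have narrow spreads, while Tbx21 and Il12rb2 have their smallest difference in Th1 cultures and Hlx rests on Th2 cultures.

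By a fold of 2 within a culture, which has no replicate and no test, the axis genes that stood higher in Ezh2 KO were 6 of 9 in unpolarized cells, against 7.55% of tested genes, 4 in Th1 cells against 7.28%, and 7 in Th2 cells against 9.61%. Ifng, Eomes, Il12rb2 and Il18r1 were at least 2-fold higher in all 3 cultures, as were 3.85% of tested genes. Runx3 and Tbx21 joined them in unpolarized and Th2 cells and fell short in Th1 cells, and Hlx joined them in Th2 cells. For 7 of the 9 genes, all but Tbx21 and Hlx, every Ezh2 KO array was above every WT array, and 20% of tested genes had that order. Ifng, Il12rb2 and Hlx were tested through their Ezh2 KO arrays alone, so their part in these counts depends on their being high there.

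The WT Th1 array, where IL-12 was given, is the level that Ezh2 KO cells can be set against for this pathway. Ezh2 KO cells that had received no IL-12 stood above it for Ifng by 10.3-fold in unpolarized and 23.6-fold in Th2 cultures, and for Eomes by 3.42-fold and 3.48-fold. Il12rb2 was 1.93-fold and 2.05-fold above it, and Il18r1 2.54-fold and 1.84-fold. Tbx21 was not above it: Ezh2 KO unpolarized cells had 0.921 and Ezh2 KO Th2 cells 0.633 of the WT Th1 level. For Hlx, Ezh2 KO unpolarized and WT Th1 cells were both under the floor. Each of these ratios is between 2 single arrays and has no test.

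Between cultures, no gene of the axis passed the test. In WT cells, Th1 cultures were at least 2-fold above unpolarized ones for Ifng, Tbx21 and Il12rb2, 3 of the 9 genes against 3% of tested genes, and above Th2 cultures for the same 3 genes against 3.78%. WT Th2 cultures were at least 2-fold above unpolarized ones for 0 of the 9, against 2.65% of tested genes. In Ezh2 KO cells, Th1 cultures exceeded unpolarized ones at this fold for Ifng alone (against 3.29% of tested genes) and Th2 cultures for 0 genes of the axis (2.7%), and Th2 cultures exceeded unpolarized ones for Ifng and Hlx (4.29%). These are single arrays. Fitted over both genotypes, no tested gene passed in any culture comparison. At an unadjusted p under 0.05 there were 632 genes for Th1 minus unpolarized, 775 for Th2 minus unpolarized and 878 for Th1 minus Th2, of which 3, 1 and 4 were axis genes. With an intensity trend the counts past the adjusted threshold were 0, 5 and 16.

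Among the axis genes, Th1 minus unpolarized differed most between the genotypes for Tbx21, by the values of single arrays. Th1 over unpolarized was 1.32-fold (log2 0.40) in Ezh2 KO cells and 5.90-fold (log2 2.56) in WT cells, and Th1 over Th2 was 1.92-fold in Ezh2 KO cells and 6.56-fold in WT cells. Il12rb2 followed the same order, with Th1 over unpolarized at 1.21-fold in Ezh2 KO cells and 2.62-fold in WT cells. For Ifng the genotypes could not be ordered in this way. In Ezh2 KO cells Th1 was 2.88-fold and Th2 2.28-fold above unpolarized. In WT cells Th1 was at least 2.28-fold above a value at the floor, a lower bound that may hide a fold above 2.88. Th2 and unpolarized WT cells were both at the floor. With 1 array for each genotype and culture, the interaction could not be tested. The SD of the log2 values over the 3 cultures was smaller in Ezh2 KO than in WT for 6 of the 9 genes, against 47.7% of tested genes. For Tbx21 it was 0.47 in Ezh2 KO and 1.52 in WT, for Il12rb2 0.14 and 0.90, and for Eomes 0.24 and 0.50. For Il18r1 (0.37 in Ezh2 KO and 0.42 in WT) and Il18rap (0.20 and 0.22) the spread was alike in size. Stat4 (0.18 in Ezh2 KO and 0.046 in WT) had the larger spread in Ezh2 KO, as did Hlx, which was at the floor on all WT arrays. Ifng had 0.80 in Ezh2 KO and 0.69 in WT, but 2 of its 3 WT values (6.07 and 4.03) were raised to the floor. Raising them narrows the WT spread, so the order of the genotypes cannot be read for Ifng.

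**Figure D3:**
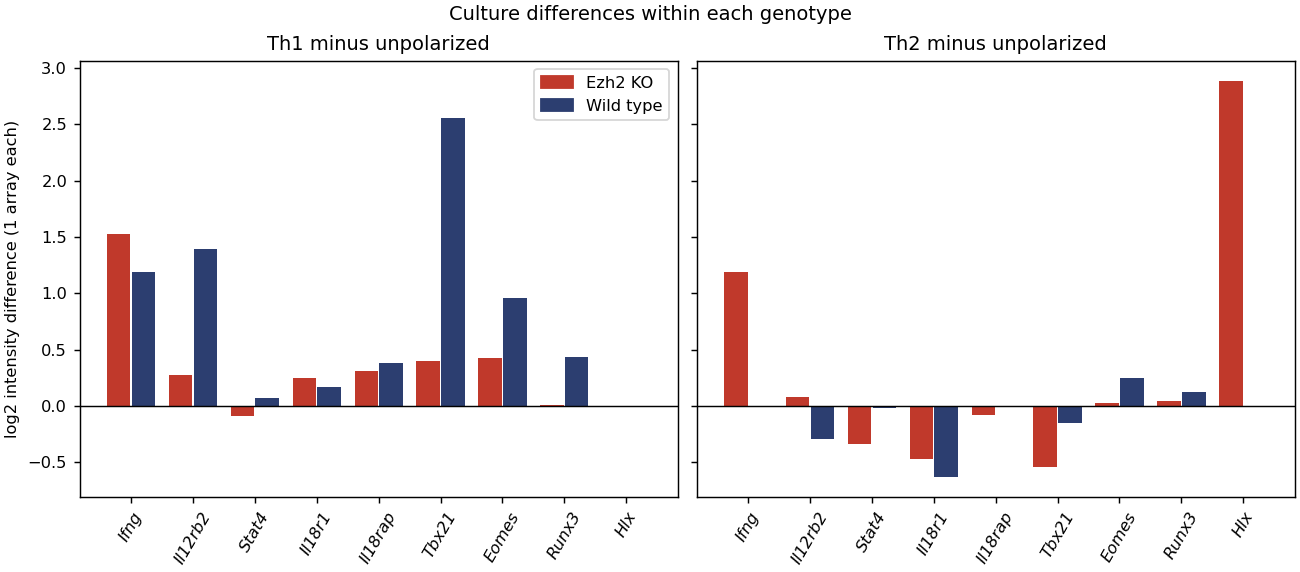
Log2 intensity difference of Th1 minus unpolarized (left panel) and Th2 minus unpolarized (right panel) for each gene, Ezh2 KO in red left of WT in blue, each bar from 1 pair of arrays and values at or below the floor set to it. In the left panel the Tbx21 bar is 0.40 in Ezh2 KO and 2.56 in WT. In the right panel Ifng (1.19) and Hlx (2.89) stand up in Ezh2 KO and are 0 in WT, where both arrays were at the floor.

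IL-18 receptor levels had the same order of cultures in both genotypes, Th1 above unpolarized above Th2. For Il18r1, Th1 minus Th2 was log2 0.72 in Ezh2 KO and 0.80 in WT cells, and 0.76 ± 0.10 (SE) in the fit over both, with an unadjusted p of 0.00249 and an adjusted p of 0.526 (0.0322 with an intensity trend, and 0.253 to 0.642 in the other settings that keep every culture). Il18rap had 0.39 in Ezh2 KO and 0.39 in WT cells, with an adjusted p of 0.639. Eomes was higher in Th1 than in Th2 cells by log2 0.40 in Ezh2 KO and 0.71 in WT cells, with an adjusted p of 0.65.

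Of 15 tested genes for other components of IL-12 and IL-18 signalling, 3 rose and 1 fell in Ezh2 KO cells, against 8.35% higher and 7.98% lower of all tested genes, with a median of log2 0.16. Gadd45g, a stress-induced protein that promotes IFN-γ production downstream of IL-12 and IL-18, had 11140, 11770 and 11850 in unpolarized, Th1 and Th2 cultures of Ezh2 KO cells, against 892, 1294 and 1183 in WT cells. It rose by 3.38 ± 0.24 (adjusted p 0.0143), a separation wider than that of any axis gene but Ifng. Il12rb1, the chain that pairs with Il12rb2, rose by 2.08 ± 0.28 (adjusted p 0.02), and Il18bp, a secreted inhibitor of IL-18, by 1.71 (adjusted p 0.0414), with all 3 WT arrays under the signal limit. Gadd45b gave 0.79 with an adjusted p of 0.229, and Map3k4, a kinase that GADD45 proteins activate, was the gene that fell. Of the cytokines that act on these receptors, only Il18 had enough signal: 300, 245 and 291 in Ezh2 KO cells, against 48.0, 72.4 and 47.9 in WT cells, a rise of 2.34 with an adjusted p of 0.0256.

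Of other factors listed here as promoting Ifng, more rose than fell. Of 16 tested, 8 rose and 2 fell, against 8.35% higher and 7.98% lower of all tested genes, with a median of 0.61 beside -0.07 for all tested genes. Prdm1 (Blimp-1), which rose by 2.41 (adjusted p 0.0331), is counted in this list although it can repress Ifng in CD4 T cells. Id2 rose by 2.04, Zeb2 by 1.47 and Bhlhe40, a factor needed for full IFN-γ output of Th1 cells, by 1.22. Their adjusted p ran from 0.0143 to 0.0274, and Zeb2 was under the signal limit on all WT arrays. Id2 was bright throughout, at 14930, 19450 and 18070 in Ezh2 KO cells, against 3347, 4599 and 4865 in WT cells. Of 14 factors listed as opposing the Th1 fate or restraining Ifng, a list without Prdm1, 0 rose and 1 fell, with a median of 0.07. The shares of all tested genes, 8.35% higher and 7.98% lower, are near these counts. The gene that fell was Bach2 (-0.92, adjusted p 0.0456), which restrains effector differentiation. Gata3, the Th2 factor, gave 0.84 with an adjusted p of 0.0559, Socs3 0.77 with 0.204, and Stat6, which carries the IL-4 signal, -0.62 with 0.0685.

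At the IFN-γ receptor, the 2 chains moved in opposite directions. Ifngr1, the ligand-binding chain, had 8070, 8423 and 7525 in Ezh2 KO cells, against 3084, 4396 and 2412 in WT cells, and rose by 1.32 (adjusted p 0.0318). Ifngr2, the signalling chain, had 241, 144 and 264 in Ezh2 KO cells, against 1043, 345 and 721 in WT cells, and fell by 1.61 (adjusted p 0.0318). In both genotypes Ifngr2 was lowest in Th1 cultures. Of 8 tested genes of the receptor pathway, 3 rose (Ifngr1, Irf1 and Socs1) and 1 fell, against 8.35% higher and 7.98% lower of all tested genes, with a median of 0.00. Irf1, the first transcription factor induced by IFN-γ, rose by 1.11 (adjusted p 0.0383), and Socs1, the feedback inhibitor, by 0.66 (adjusted p 0.044).

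Of 26 tested IFN-γ response genes, 12 rose and 0 fell, with a median of 0.75, against 8.35% higher and 7.98% lower among all tested genes. In every culture 22 of them were higher, against 26.2% of tested genes. Cxcl10, a chemokine ligand of Cxcr3, had 175, 218 and 131 in Ezh2 KO cells, against 4.51, 28.8 and 26.6 in WT cells (3.06, adjusted p 0.0295), with all 3 WT arrays under the signal limit. The guanylate-binding protein gene Gbp6 had 5820, 7157 and 8966 in Ezh2 KO cells, against 777, 2170 and 681 in WT cells (2.78, adjusted p 0.0394). Gbp2 (2.31, adjusted p 0.0527) and Iigp1 (2.07, adjusted p 0.0667) were high in WT Th1 cells and missed the threshold. The unpolarized and Th2 cultures contained antibody to IFN-γ, and Th1 cultures did not. The list's median for Th1 minus unpolarized was 0.21 in Ezh2 KO cells and 0.65 in WT cells, on single arrays. Of 18 tested Th1 effector genes, 8 rose and 0 fell, against 8.35% higher and 7.98% lower of all tested genes, with a median of 1.70. The largest differences were those of Nkg7, a cytotoxic granule protein (4.85, adjusted p 0.0302), the chemokine Ccl5 (4.12, adjusted p 0.02), the inhibitory receptor gene Havcr2 (4.08, adjusted p 0.02) and the chemokine Ccl3 (3.72, adjusted p 0.0363). Havcr2 and Ccl3 were under the signal limit on all 3 WT arrays, so like Ifng they were tested through their Ezh2 KO arrays. Irf1 counts in 3 of these lists and Socs1 in 2.

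**Figure D4:**
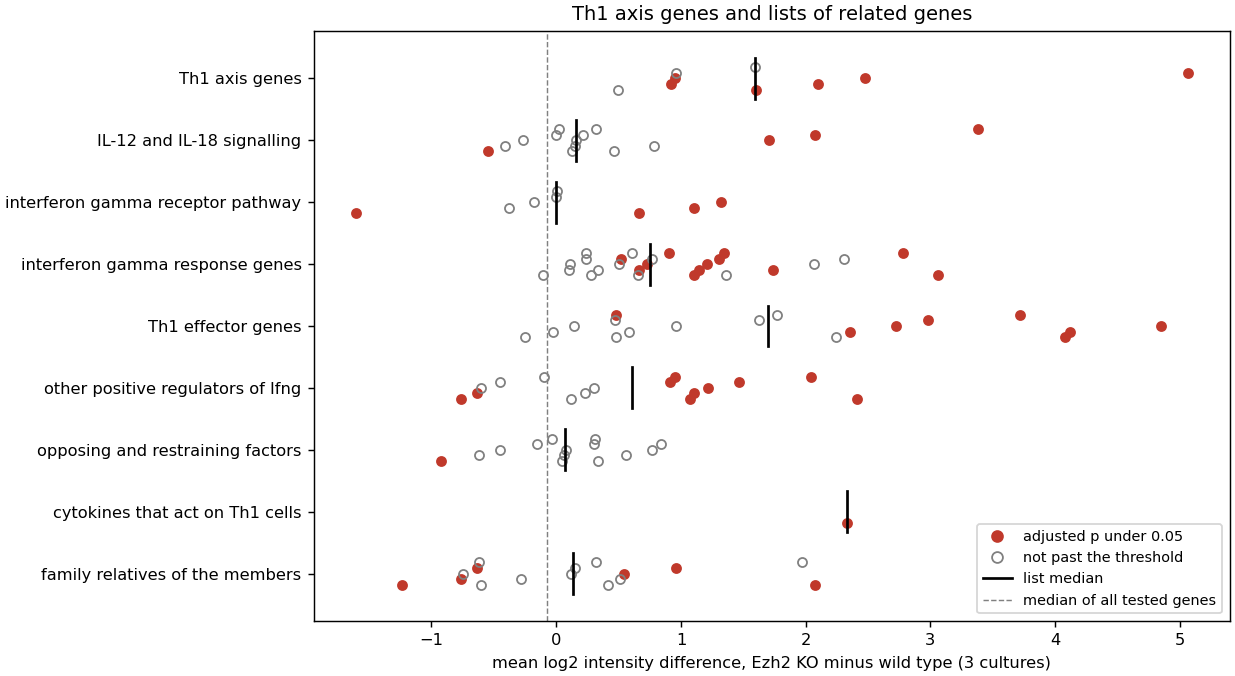
Mean log2 intensity difference of Ezh2 KO minus WT over 3 cultures for the 9 Th1 axis genes (top row) and the tested genes of 8 related lists, 1 point per gene, filled where the adjusted p is under 0.05. The black bars are list medians, 1.59 for the axis and 1.70 for Th1 effector genes, and the dashed line is the median of all tested genes (-0.07).

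The 3 nearest named genes on each side of each axis gene came to 48 genes outside the axis, of which 34 were tested. Of these, 6 rose and 2 fell, with a median of -0.04, against 8.35% higher and 7.98% lower of all tested genes. The 48 leave out Il18r1 and Il18rap, which adjoin each other and both rose. Beside Ifng, Mdm1 fell by 0.87 (adjusted p 0.039), and Rap1b (0.39, adjusted p 0.0596), Dyrk2 (-0.27, adjusted p 0.213) and Cand1 (-0.34, adjusted p 0.0771) were not called. Beside Eomes, Azi2 rose by 0.56 and the 5 others were not called, and beside Tbx21, Kpnb1 fell by 0.61. Stat4 had the busiest surroundings: the predicted gene Gm17767 next to it read 1841, 2551 and 1925 in Ezh2 KO cells, against 190, 417 and 91.4 in WT cells, a rise of 3.43 ± 0.90 (adjusted p 0.0286). Nabp1 (1.61), Mfsd6 (0.85) and Nab1 (0.68) near Stat4 rose as well. Il18r1 and Il18rap lie in a cluster of IL-1 receptor family genes. In it, Il1rl2, the IL-36 receptor gene, rose by 0.96 (adjusted p 0.0309). Il1r2, a decoy receptor for IL-1, gave 1.97 ± 1.82 with an adjusted p of 0.159, most of it in Th2 cells.

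**Figure D5:**
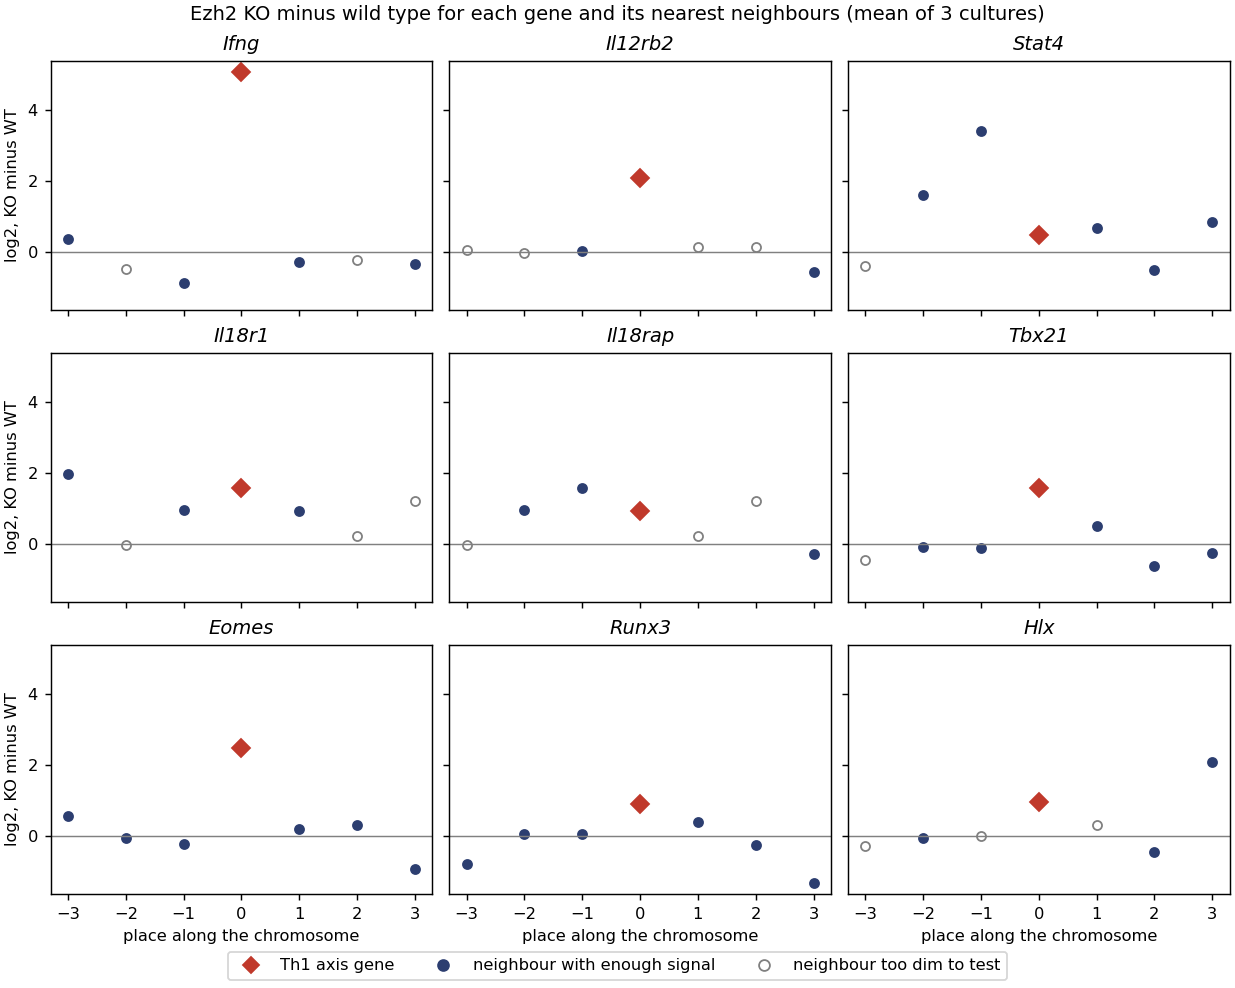
Mean log2 intensity difference of Ezh2 KO minus WT (3 cultures) for each Th1 axis gene, at place 0 as a red diamond, and the 3 nearest named genes on each side in order along the chromosome, filled blue where tested and open where too dim. At Ifng the neighbours lie between -0.87 and 0.39, and at Stat4 the gene at place -1 (3.43) is above Stat4 itself (0.50).

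Likeness was ranked by the Pearson correlation of log2 values over the 6 arrays, among 3263 tested genes with a range of at least log2 1. Predicted genes, clone names and receptor or immunoglobulin segments were left out of the 3263. The genes most like Ifng were Gnptab (r = 0.9994), Hip1r (0.9989), Fgl2 (0.9947), Arsb (0.9945) and Sgk1 (0.9944). The 6 arrays fall into the 2 genotypes, and 591 genes reached r = 0.9 with Ifng, so a high r is common in this comparison. Fgl2, a fibrinogen-like protein secreted by T cells, had 3672, 5969 and 6208 in Ezh2 KO cells, against 102, 273 and 89.5 in WT cells. The genes most like Tbx21 were Luzp1 (0.9832), Tmem171 (0.9798), Pllp (0.9787), Cxcr3 (0.9782) and Irf9 (0.9768), and 55 genes reached 0.9. Cxcr3, the chemokine receptor of Th1 cells, had 2378, 2382 and 1215 in Ezh2 KO cells, against 219, 1313 and 227 in WT cells. As with Tbx21, its WT Th1 value reached the Ezh2 KO range, and its mean difference of 2.24 ± 1.30 was not called (adjusted p 0.0766).

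Checks on the arrays bear on all of these values. Ezh2 itself had 4971, 4876 and 4946 in Ezh2 KO cells, against 7002, 6553 and 7677 in WT cells, and fell by 0.52 ± 0.11 (adjusted p 0.0437). A probe set outside the deleted part checks nothing, and the sources used here do not give the position of the deletion. Of 7 CD4 T cell markers, 0 were called, and their summed intensity was 47930 to 53070 in Ezh2 KO and 44790 to 49010 in WT cells. Cd4 itself read 433, 300 and 315 in Ezh2 KO cells, against 496, 477 and 548 in WT cells (-0.55, adjusted p 0.0914), and Cd5 gave -0.51 (adjusted p 0.0532). These 2 were lower in every culture, while the other 5 were higher in every culture, and the median of the 7 was 0.23. Eomes and Ifng are also expressed by CD8 T and NK cells. The CD8 markers Cd8a (-0.49) and Cd8b1 (0.35) were not called, and their sum was 374 to 540 in Ezh2 KO and 389 to 414 in WT cells. Of 6 markers of NK cells and type 1 innate lymphoid cells with a probe set, 4 were under the signal limit on all arrays. Of these, Ncr1 (-0.56) and Tyrobp (-0.42) were lower in Ezh2 KO, and Klre1 (1.16) and Klra8 (0.21) higher. Fcer1g rose by 2.05 and Itga2 gave 1.36 (adjusted p 0.103). Both were under the limit on all 3 WT arrays, so they were tested through their Ezh2 KO arrays. The sum of the 6, dim ones included, was 237 to 267 in Ezh2 KO and 118 to 159 in WT cells. Of 8 listed γδ T cell markers, 3 had a single-symbol probe set and 2 were tested. Cd163l1 rose by 1.57, and Blk gave 0.73 (adjusted p 0.254). Among 3 tested markers of B cells Ighm fell by 0.79 while Ms4a1 rose by 2.46. None of 5 tested myeloid markers was called. The sum of all 11 listed, tested or not, was 2842 to 4517 in Ezh2 KO and 2515 to 3047 in WT cells. Most of it was Cst3, at 2475 to 4037 in Ezh2 KO and 2137 to 2466 in WT cells. Of the markers of naive and memory state, Cd44 rose by 1.39, Il7r by 0.98 and Ccr7 fell by 1.00. The part of these markers in the differences of the axis genes was not tested.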

How the data were processed

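Each culture gave total RNA for 1 Affymetrix array, labelled from the 3′ end by in vitro transcription, per the labels' protocols. The authors deposited linear intensities, 1 per probe set and array, made with Affymetrix Expression Console (no version), per the submitters' processing notes. Which algorithm summarized the probes is not stated there. Trimmed by 2% at both ends, every array had a mean of 500.003, so the authors' values had been scaled to 1 target. The table held 45101 probe sets, of which 34945 had 1 gene symbol in the platform's annotation, 932 several and 9160 none, and 64 were controls.

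Values under the 20th percentile (11.33) were set to it, and log2 was taken. A gene was represented by its brightest probe set on average, and 11572 genes whose highest value reached the median (64.43) were tested with limma 3.58.1 in R 4.3.3 (genotype plus culture, eBayes, 2 residual and 1.66 prior degrees of freedom). Benjamini-Hochberg adjustment ran over all of them, with a threshold of 0.05. Folds against an array at the floor are lower bounds, and differences between 2 arrays have no test. The fit was also run on simulated data, and that outcome is not reported here. The array number and signal over background limit precision, not depth.

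The members and lists were chosen with earlier results of these data known. Named genes are the 9 members, Ezh2, up to 4 tested genes of each list with the largest differences, the 3 nearest named genes on each side, and the 5 genes most like Ifng and Tbx21. Map3k4, Runx1, Tbx6 and the dim NK cell markers were named after their values were seen. The alternatives tried were quantile normalization, median centring, no signal filter, a filter on the mean, no floor, a higher floor, other probe set rules, an intensity trend, no culture term, and leaving out each culture. Listed genes with no single-symbol probe set were not analysed here.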

Additional observations from a re-analysis of the deposited data

Results flagged for a closer look

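In 3 of the axis genes a culture difference pointed one way in Ezh2 KO cells and the other way in WT cells, on single arrays, so the difference between genotypes was not tested. Stat4 in Th1 minus unpolarized cultures was -0.088 on the log2 scale in Ezh2 KO cells and 0.066 in WT cells. Il12rb2 in Th2 minus unpolarized cultures was 0.082 in Ezh2 KO cells and -0.30 in WT cells, where all 3 arrays were under the signal limit. Runx3 in Th1 minus Th2 cultures was -0.036 in Ezh2 KO cells and 0.31 in WT cells. All 3 of these Ezh2 KO differences are under log2 0.1 in size, while the same genes differed between the genotypes by log2 0.50, 2.10 and 0.92.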

How the results depend on the processing

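Between the genotypes, 1890 genes and 6 of the 9 axis genes passed the threshold. Without the signal filter 0 genes and 0 axis genes passed, although 4711 genes had an unadjusted p under 0.05, and the 6 axis genes then had adjusted p from 0.0769 to 0.107. Leaving out a culture gave 0 to 0 genes and 0 to 0 axis genes, with 1 residual degree of freedom and 2952 to 3227 genes at an unadjusted p under 0.05. The count of genes was 3225 when only genes with a mean above the 60th percentile were tested (Ifng, Il12rb2 and Hlx were then too dim), 3983 with an intensity trend and 2838 with no culture term. Median centring gave 1272 genes. An intensity trend also gave 5 genes for Th2 minus unpolarized and 16 genes for Th1 minus Th2, 1 of them of the axis (Il18r1), where the other fits gave 0. Across the axis genes and alternatives, 84 genotype results kept their direction and side of the threshold, 6 passed newly (Stat4 and Tbx21) and 25 no longer passed. Besides the 6 genes without a filter or without a culture, the last group holds Runx3 under the mean of its probe sets. The Hlx difference became 0 without the Th2 cultures. Culture differences turned direction for Il12rb2 in Th2 minus unpolarized (0.041 with a floor at the 40th percentile), Runx3 in Th1 minus Th2 (-0.54 with the mean of its probe sets) and Eomes in Th2 minus unpolarized (-0.095 on its second probe set), and the cause was not tested. The fit with culture as a term pairs the genotypes within each culture, and the labels give no replicate numbers for any other pairing.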

Other observations

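Relatives of the axis genes from the same families gave a mixed picture. Of 16 tested T-box, Runx, STAT, IL-1 receptor and IL-12 receptor family genes, 3 rose and 3 fell in Ezh2 KO cells, against 8.35% higher and 7.98% lower of all tested genes, with a median of log2 0.13. Il12rb1 among those that rose, and Runx1 and Stat5a among those that fell, were already counted in lists above. The largest rise was that of Il12rb1 (2.08, adjusted p 0.02), and the largest fall that of Il6st, the shared signalling chain of the IL-6 family, which had 164, 172 and 166 in unpolarized, Th1 and Th2 cultures of Ezh2 KO cells, against 437, 351 and 399 in WT cells (-1.24, adjusted p 0.0233). Where Runx3 rose, its relative Runx1 fell, with 1230, 1042 and 1030 in Ezh2 KO cells, against 1887, 1687 and 2035 in WT cells (-0.77, adjusted p 0.0363). Of the other T-box genes with a probe set, Tbx6 gave -0.75 (adjusted p 0.0569), and most were too dim to test.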
